A study of Mus musculus with 36 samples.

Results

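CD8+ T cells sorted from mouse melanomas were profiled by RNA-seq, and macroH2A double knockout (dKO) mice were compared with wild-type (WT) mice. The members are every library labelled as sorted CD8+ T cells, 8 of the 36 samples of the series, with 4 mice per genotype and 2 females and 2 males in each. The remaining libraries include 12 bulk tumours and 8 sorted cancer-associated fibroblast (CAF) samples, which serve below only for the levels of the same genes outside T cells. Mice of both genotypes carried the same conditional tumour alleles, Braf among them, and a CreERT2 recombinase under the melanocyte promoter of Tyr, on a mixed strain background. Tumours were induced with 4-hydroxytamoxifen at 9 weeks of age and collected 50 days after induction. The dKO mice carry constitutive deletions of H2afy and H2afy2, so the T cells and the cells around them share the genotype, and an effect within T cells cannot be told apart from an effect of the tumour on them.

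CD8+ T cells recognise peptides on MHC class I through a T cell receptor and the CD8 co-receptor, and kill target cells with perforin and granzymes or secrete cytokines such as interferon-γ. Under lasting antigen they take on inhibitory receptors such as PD-1 (Pdcd1). A minority, termed type 17 cells, make IL-17A and IL-17F and are sustained by signals through the IL-23 receptor. MacroH2A1 (H2afy) and macroH2A2 (H2afy2) are histone H2A variants that carry a large folded domain outside the nucleosome and are found mostly in chromatin that is not transcribed.

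The T cell identity of the sort was clear in all 8 libraries. The 20 CD8 T cell identity genes together reached 14160 to 20720 CPM (counts scaled to the library total), against 423 to 682 in bulk tumours. Cd8a stood at 479 to 838 CPM in WT and 538 to 684 CPM in dKO, Cd3e at 619 to 878 and 572 to 658 CPM, and Trac at 940 to 2010 and 868 to 1069 CPM. Cd4 stayed at or under 12.2 CPM. Per-gene CPM values here and below were scaled by the trimmed mean of M-values (TMM) unless they are sums, and levels are not compared between genes. Depth ranged from 17526681 to 28690034 counts in genes. Pairs of libraries of the same genotype correlated at 0.86 to 0.96 and pairs across genotypes at 0.83 to 0.93 (Pearson's r of log2 CPM across expressed genes, which are not independent replicates). The median was 0.90 within WT, 0.93 within dKO and 0.90 across genotypes. Xist and Ddx3y followed the labelled sex in all 8.

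The targeted genes gave no check of the genotype labels. H2afy (chromosome 13, 56073619 to 56136361, GRCm38) stood at 96.0, 96.5, 72.8 and 76.7 CPM in the 4 WT libraries and at 72.1, 78.2, 83.8 and 93.9 CPM in the 4 dKO libraries, given here and below in the order of replicates 1 to 4. The ranges overlapped almost fully (log2 fold change −0.05 ± 0.11 SE, edgeR adjusted p = 0.92). The counts are sums over the whole gene, and reads from parts outside the deletion cannot be told apart from it. H2afy2 (chromosome 10, 61738665 to 61784147) lay at or under 0.42 CPM in every library of either genotype, too low to test.

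Reads of other cell types were present in the sorted libraries and were uneven among them. Melanocyte markers summed to 414 CPM in WT replicate 1 and to 20.8 to 83.2 CPM in the other 7, against 1512 to 4940 in bulk tumours. Neutrophil markers summed to 110 CPM in dKO replicate 3 and to 1.53 to 11.0 CPM elsewhere, with 5 of the 14 listed genes, Elane, Lcn2, Ly6g, Mmp8 and Mpo, under 1 CPM in all 8. The same dKO replicate 3 had the highest sums of monocyte and macrophage markers (1709 CPM, others 333 to 1261), of fibroblast markers (3461 CPM, others 12.8 to 2059) and of erythroid and platelet markers (187 CPM, others 1.99 to 84.3).

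MHC class II genes were higher in the sorted libraries than in the bulk tumours, and dendritic cell markers were in all but WT replicate 3. MHC class II genes, which present peptides to CD4+ T cells and which mouse T cells largely lack, summed to 2817 to 9964 CPM against 739 to 1839 in bulk tumours. Dendritic cell markers summed to 147 to 786 CPM in WT and to 507 to 1180 CPM in dKO, against 178 to 336 in tumours. Siglech, a marker of plasmacytoid dendritic cells, led that list with 204, 439, 44.8 and 342 CPM in WT and 427, 311, 570 and 260 CPM in dKO. B and plasma cell markers summed to 100 to 1802 CPM, although Ms4a1 and Pax5, which define mature B cells, stayed under 1 CPM in all 8. WT replicate 3 was lowest in the dendritic cell, B cell, macrophage, MHC class II and NK cell sums. In libraries of pooled cells, more cells of a type and more RNA per cell cannot be told apart, and kits differed between the sorted cells and the tumours.

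**Figure D1:**
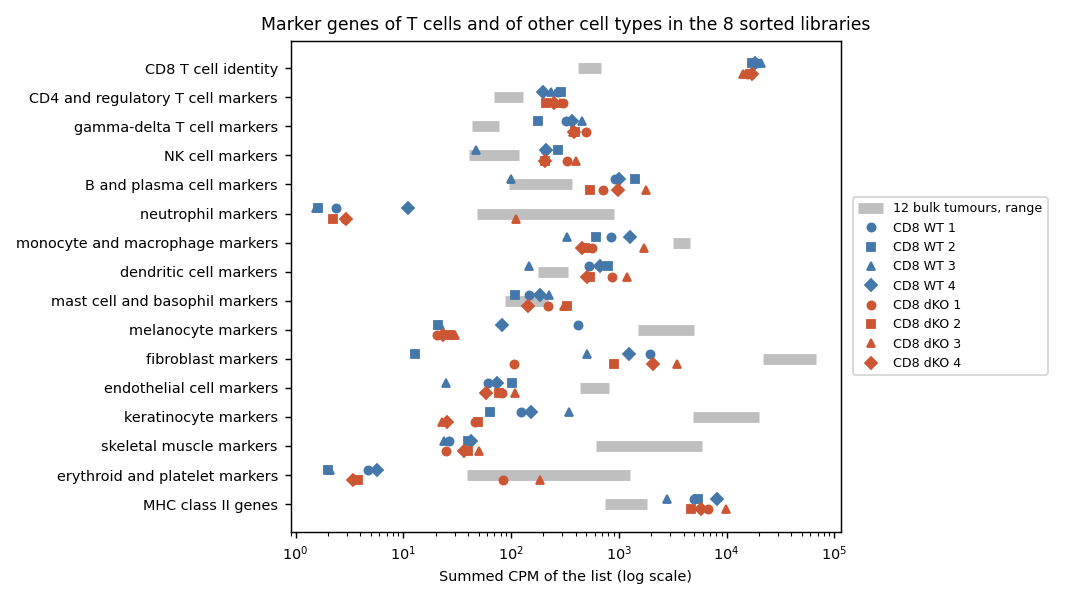
Summed CPM (log axis) of marker lists in the 8 sorted CD8 libraries (blue WT, orange dKO, one symbol per replicate number) with the range over 12 bulk tumours as a grey bar. The identity list lies far above the tumours, melanocyte, fibroblast and keratinocyte lists far below, and the dendritic cell and MHC class II lists mostly above.

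Genome-wide, the genotype moved few genes past the threshold. Of 14944 genes tested with sex in the model, 39 were called higher in dKO (0.261%) and 35 lower (0.234%), where a call needs a change of more than 0.75 on the log2 scale, in either direction, and an adjusted p below 0.05 (edgeR quasi-likelihood test). DESeq2 called 325 of the same genes higher (2.17%) and 185 lower (1.24%). Of the 74 called genes, 45 were protein-coding, 0.368% of the protein-coding genes tested, and 29 were pseudogenes, long non-coding RNAs or other gene models, 1.07% of those tested. Without adjustment, 894 genes were higher (5.98%) and 637 lower (4.26%) at a threshold of 0.05. The genotypes did not overlap at 611 genes higher in dKO (4.09%) and 442 lower (2.96%), which takes in all 74 called genes. The biological coefficient of variation was 0.521, with 5 residual degrees of freedom. The median log2 fold change over all genes tested was 0.002. No gene was called for a difference in the genotype effect between the sexes (0.0%, edgeR), with 808 at an unadjusted threshold of 0.05, whereas DESeq2 called 132.

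Among the genes higher in dKO, Dgat1, which catalyses the last step of triglyceride synthesis, stood at 190, 171, 210 and 184 CPM in WT and at 1254, 1184, 940 and 2296 CPM in dKO, so every dKO library lay more than 4-fold above every WT library (log2 fold change 2.90 ± 0.28 SE, edgeR adjusted p = 0.0038). Its level in bulk tumours was 18.8 to 36.1 CPM, so the sorted cells of either genotype exceeded the tumours. Baiap3, which has C2 domains and acts in vesicle traffic, went from 0.36 to 1.36 CPM in WT to 52.5 to 93.5 CPM in dKO (log2 fold change 6.75 ± 0.45 SE, edgeR adjusted p = 3.9e-04). It was near 0 in both tumours and CAFs, at most 1.11 CPM.

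Ifngr2, a chain of the interferon-γ receptor, read 14.4, 22.4, 12.8 and 20.2 CPM in WT and 72.5, 51.2, 65.4 and 47.2 CPM in dKO (log2 fold change 1.76 ± 0.25 SE, edgeR adjusted p = 0.030). F2r, the thrombin receptor PAR1, read 51.8, 102, 159 and 166 CPM in WT and 334, 394, 346 and 354 CPM in dKO (log2 fold change 1.67 ± 0.27 SE, edgeR adjusted p = 0.048). Nt5e, which encodes CD73 and turns extracellular AMP into adenosine, read 287, 322, 369 and 315 CPM in WT and 746, 803, 420 and 551 CPM in dKO (log2 fold change 0.93 ± 0.15 SE, edgeR adjusted p = 0.049). For each of these 3 genes the lowest dKO library lay above the highest WT library. The mean of Ifngr2 was lower in the sorted cells (38.5 CPM) than in tumours (85.0 CPM) or CAFs (87.7 CPM). Its ranges overlapped, since dKO replicate 1 (72.5 CPM) lay above the lowest tumour (68.4 CPM). Mcm6, a subunit of the replicative helicase, rose from 42.1 to 84.4 CPM to 118 to 169 CPM.

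The other protein-coding genes with the greatest rises among those with an average log2 CPM of at least 3 were Gm10282, BC147527, Zfp949, Gm12166, Rpe, Mtmr9, Dennd3 and Atp11b. Their log2 fold changes ran from 1.71 for Atp11b, a phospholipid flippase subunit, to 6.30 for Gm10282. Rpe is an epimerase of the pentose phosphate pathway, Mtmr9 a myotubularin-related protein, Dennd3 an exchange factor for Rab GTPases and Zfp949 a zinc finger protein. Ptp4a2, a phosphatase, stood at 978 to 1160 CPM in WT and 1707 to 2392 CPM in dKO (log2 fold change 0.90 ± 0.13 SE, edgeR adjusted p = 0.036). Klri2, a lectin-like receptor of NK cells, was detected almost only in dKO, at 0 to 0.31 CPM in WT and at 5.53, 5.80, 17.5 and 3.76 CPM in dKO (edgeR adjusted p = 0.037).

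Among the genes lower in dKO, Bcl2a1d, an anti-apoptotic member of the BCL2 family, read 263, 212, 213 and 234 CPM in WT and 32.5, 41.5, 32.3 and 31.4 CPM in dKO (log2 fold change −2.75 ± 0.15 SE, edgeR adjusted p = 9.6e-05). Tagap1, a GTPase-activating protein of T cells, read 182, 169, 194 and 182 CPM in WT and 11.7, 8.54, 8.74 and 15.1 CPM in dKO (log2 fold change −4.05 ± 0.22 SE, edgeR adjusted p = 9.6e-05). F2rl1, the protease-activated receptor PAR2, read 29.4, 42.5, 29.3 and 44.4 CPM in WT and 2.94, 3.49, 2.05 and 0.29 CPM in dKO (log2 fold change −4.19 ± 0.57 SE, edgeR adjusted p = 0.026). In each case the 4 WT libraries lay well above the 4 dKO libraries, and F2rl1 varied most within dKO.

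Noct, a circadian phosphatase of NADPH, fell from 64.6 to 103 CPM to 26.4 to 39.2 CPM, and Dnajc15, a mitochondrial co-chaperone, from 65.2 to 74.6 CPM to 21.1 to 34.2 CPM. Naip5, a sensor of bacterial flagellin, went from 8.98 to 16.96 CPM in WT to 0.06 to 1.11 CPM in dKO (log2 fold change −5.38 ± 0.81 SE, edgeR adjusted p = 0.037). Galnt11, a glycosyltransferase, Dynlt1b, a dynein light chain and the gene model Gm4631 fell as well, with log2 fold changes of −2.36, −3.25 and −2.25. Sfn, an epithelial 14-3-3 protein on the keratinocyte list, read 108, 55.2, 360 and 137 CPM in WT and between 17.5 and 39.9 CPM in the 4 dKO libraries (log2 fold change −2.48 ± 0.38 SE, edgeR adjusted p = 0.037). The keratinocyte list as a whole summed to 64.5 to 343 CPM in WT and 22.7 to 48.9 CPM in dKO, with Krt1 under 1 CPM in all 8 and Krt17 at most 9.08 CPM, so Sfn made up most of that sum. In tumours Sfn stood at 131 to 566 CPM, above the mean of the sorted cells.

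**Figure D2:**
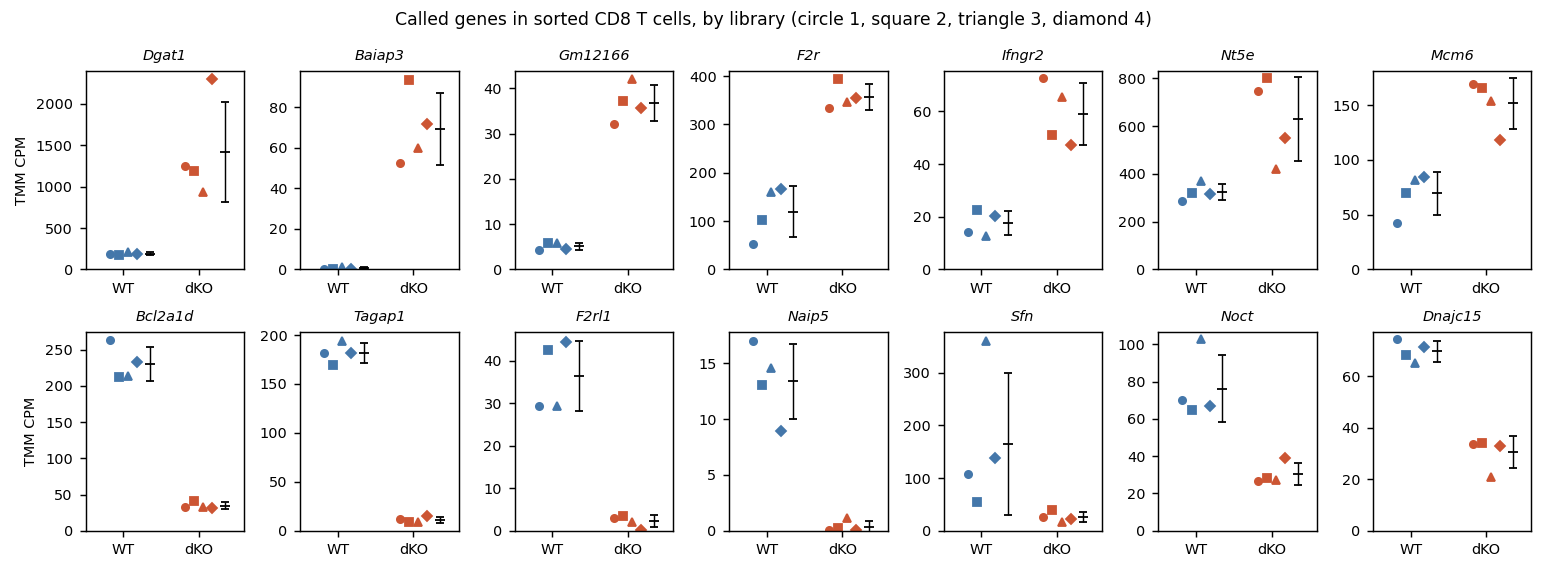
TMM-scaled CPM of 14 called genes in each library, with the replicate number as the symbol and mean ± SD (n = 4) in black. Top row, genes higher in dKO (Dgat1 940 to 2296 against 171 to 210 CPM). Bottom row, genes lower in dKO (Bcl2a1d 31.4 to 41.5 against 212 to 263 CPM). No panel shows overlap between the genotypes.

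Several called genes have near-identical copies, among which Salmon divides reads by an estimate, and the copies moved unequally. In raw CPM, Bcl2a1a lay at 1.74 to 6.96 in WT and 18.5 to 23.9 in dKO, opposite to Bcl2a1d, and Bcl2a1b at 147 to 191 and 141 to 175. The 3 copies together fell from 345 to 441 CPM to 190 to 240 CPM, a log2 ratio of means of −0.95. Tagap, the paralogue of Tagap1, read 279 to 292 CPM in WT and 349 to 429 CPM in dKO, and the pair together 458 to 472 against 361 to 438 CPM, a log2 ratio of −0.19. The 4 Naip genes together read 26.4 to 35.5 CPM in WT and 4.43 to 9.36 CPM in dKO. The 4 Dynlt1 genes together read 25.7 to 69.0 CPM in WT and 23.1 to 30.2 CPM in dKO, overlapping through WT replicate 3. The sums of the Bcl2a1, Naip and Tagap families thus differed without overlap, the Tagap sum by the least of the 3.

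The called genes also lay close together in the genome more than once. On chromosome 2, 7 genes lower in dKO stood within 175321955 to 176811223 (GRCm38), among them the zinc finger gene Zfp965 (10.2 to 15.2 CPM in WT, 0.12 to 0.39 CPM in dKO). On chromosome 17, 4 genes lower in dKO stood within 6430112 to 6961156, namely Dynlt1b, Tmem181b-ps, Gm29721 and Tagap1. On chromosome 13, the neighbouring F2rl1 and F2r, which encode related receptors, moved in opposite directions within 95511732 to 95618487. Nt5e, Zfp949 and Bcl2a1d shared 88327197 to 88731914 of chromosome 9, and Cyc1 and Dgat1 shared 76343523 to 76511953 of chromosome 15. In all, 7 runs held 2 or more called genes no more than 1 Mb apart. The run on chromosome 7 was the gene model Gm45315 lying inside Gm18194. The number of such runs to be expected was not tested. Chromosome 13 had the highest share of called genes (1.31% of 610 tested).

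Near the targeted genes the counts were small. Within 10 Mb of H2afy, 2 of 137 genes tested were called (1.46%), the non-coding Gm47585 and Gm48550, both lower, and within 20 Mb 3 of 248 (1.21%). Within 20 Mb of H2afy2, 0 of 297 genes were called by edgeR. The share over all genes was 0.495%.

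The same genes were then read in the 12 tumours and the 8 CAF samples, none of which entered the calls. These ranges were compared without a term for sex or batch, and the tumours were mostly female in WT and mostly male in dKO. Of the 35 genes lower in CD8 T cells, 22 were lower without overlap in CAFs, where 9.42% of all genes were, and 8 in tumours, where 0.261% were. Of the 39 genes higher in CD8 T cells, 10 were higher without overlap in CAFs (3.24% of all genes) and 1 in tumours (0.248%), while 4 were lower without overlap in CAFs. In both sources at once, 7 of the lower genes and 1 of the higher genes moved the same way, and the share over all genes was not counted for both together. The higher one was Gm12166, at 4.36 to 5.80 CPM in WT and 32.2 to 42.0 CPM in dKO T cells, at most 0.11 CPM in WT CAFs and 0.82 to 1.09 CPM in dKO CAFs. Zfp965 was among the lower ones, with 2.99 to 3.95 CPM in WT CAFs and 0.17 to 0.43 CPM in dKO CAFs.

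Other called genes did not differ this way outside the T cells. For 29 of the 39 higher and 12 of the 35 lower genes, neither the tumours nor the CAFs differed without overlap in the same direction. The matching share over all genes was not counted. Dgat1 read 16.6 to 22.1 CPM in WT CAFs and 15.98 to 23.4 CPM in dKO CAFs. Ifngr2 read 80.8 to 87.5 CPM in WT and 72.9 to 101 CPM in dKO CAFs. Bcl2a1d was near 0 in CAFs, at most 0.11 CPM. Tagap1 went the other way outside T cells, with 6.20 to 8.54 CPM in WT and 16.8 to 22.9 CPM in dKO tumours. The difference of the genotype effects between cell sources was not tested. Of all 74 called genes, 43 had a mean level in the sorted cells at or above that in tumours (0.557% of such genes were called, against 0.429% of the others).

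**Figure D3:**
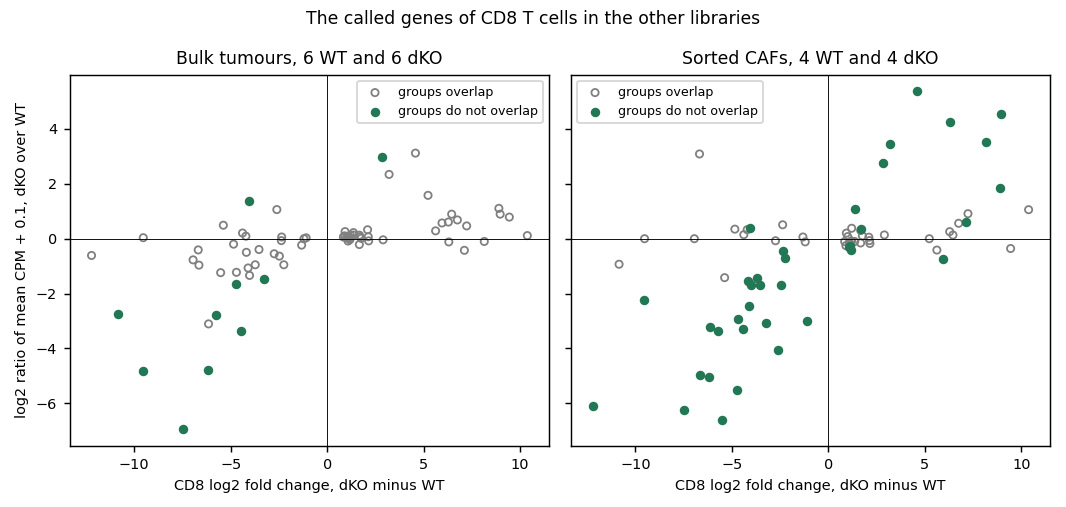
Each point is 1 of the 74 genes called in CD8 T cells, with its log2 fold change there (horizontal axis) against the log2 ratio of mean CPM plus 0.1, dKO over WT, in bulk tumours (left) and sorted CAFs (right). Filled points do not overlap between genotypes in that source, 22 of the 35 lower genes moving the same way in CAFs. The horizontal values chose the genes.

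Of 29 type 17 members tested of 31 listed, 9 were higher at an unadjusted threshold of 0.05 and 0 were lower, where 5.98% and 4.26% of all genes were. None passed the adjusted threshold in edgeR, and DESeq2 called 4 higher. The list's median log2 fold change was 0.38 beside 0.002 over all genes. It ranged from 0.24 without WT replicate 1 to 0.69 without WT replicate 4, with 0.57 without dKO replicate 1 and 0.60 without dKO replicate 4. The summed level of the list did not separate the genotypes, at 4795 to 7618 CPM in WT and 6587 to 6917 CPM in dKO. The list was chosen with results of these libraries known, so its direction is no independent evidence.

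Il23r, a chain of the IL-23 receptor, read 3.69, 1.72, 1.18 and 3.58 CPM in WT and 15.6, 14.8, 9.68 and 5.73 CPM in dKO (log2 fold change 2.10 ± 0.51 SE, edgeR adjusted p = 0.16). Il1r1, the IL-1 receptor, read 12.5 to 20.3 CPM in WT and 21.7 to 49.6 CPM in dKO (log2 fold change 0.98 ± 0.29 SE, edgeR adjusted p = 0.26). The genotypes did not overlap at either receptor gene.

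The cytokines varied far more. Il17f read 14.7, 61.8, 10.0 and 8.82 CPM in WT and 35.7, 136, 245 and 61.3 CPM in dKO (log2 fold change 2.59 ± 0.68 SE, edgeR adjusted p = 0.20). Il17a read 20.4, 76.4, 5.00 and 6.40 CPM in WT and 12.3, 84.8, 193 and 41.4 CPM in dKO (log2 fold change 2.17 ± 0.83 SE, edgeR adjusted p = 0.41). WT replicate 2 was as high as the lower dKO libraries for both, and dKO replicate 3, the library with the most neutrophil and macrophage reads, was the highest. Without that library, 5 of 29 members were higher at the unadjusted threshold, and Il23r had a log2 fold change of 2.09 (edgeR adjusted p = 0.40). Its Il23r level lay within the range of the other dKO libraries.

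Other sources of IL-17 were checked by their markers. Gamma-delta T cell markers summed to 178 to 452 CPM in WT and 374 to 497 CPM in dKO. Of 9 members tested, 8 had a log2 fold change above 0, and the median was 0.61 beside 0.002 over all genes. On that list Blk, a kinase of IL-17-producing gamma-delta T cells and of B cells, read 1.77 to 3.02 CPM in WT and 7.53 to 10.2 CPM in dKO (log2 fold change 1.75 ± 0.34 SE, edgeR adjusted p = 0.078), the other 8 members tested being above the unadjusted threshold. Of 14 innate-like T cell genes, 4 were higher at the unadjusted threshold and 0 lower. Zbtb16, the factor of natural killer T and mucosal-associated invariant T cells, read 2.24 to 6.45 CPM in WT and 9.44 to 23.9 CPM in dKO (log2 fold change 1.69 ± 0.45 SE, edgeR adjusted p = 0.21). The part of such cells in the IL-17 values was not tested.

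Type 2 genes behaved much like the IL-17 cytokines. Of 11 members tested, 4 (Il13, Il5, Areg and Il1rl1) were higher at the unadjusted threshold, 0 lower and 0 called, and the median log2 fold change was 0.86. That median was 0.51 without WT replicate 1, 0.59 without dKO replicate 3 and 0.49 without both. Il13 read 10.3, 19.7, 12.6 and 13.8 CPM in WT and 19.1, 83.1, 156 and 58.0 CPM in dKO (log2 fold change 2.39 ± 0.52 SE, edgeR adjusted p = 0.11). Areg, a growth factor of tissue repair, read 0.87 to 1.59 CPM in WT and 3.25 to 17.4 CPM in dKO (edgeR adjusted p = 0.078). dKO replicate 3 was again highest for both. Mast cell and basophil markers summed to 109 to 225 CPM in WT and 144.5 to 331 CPM in dKO, highest in dKO replicate 2. The part of such cells in the type 2 values was not tested. Type 1 genes were mixed, with Runx3 higher (log2 fold change 0.70) and Stat4 lower (log2 fold change −0.44), neither called, and Ifng at 214 to 461 CPM in WT and 221 to 421 CPM in dKO (log2 fold change −0.23 ± 0.28 SE).

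**Figure D4:**
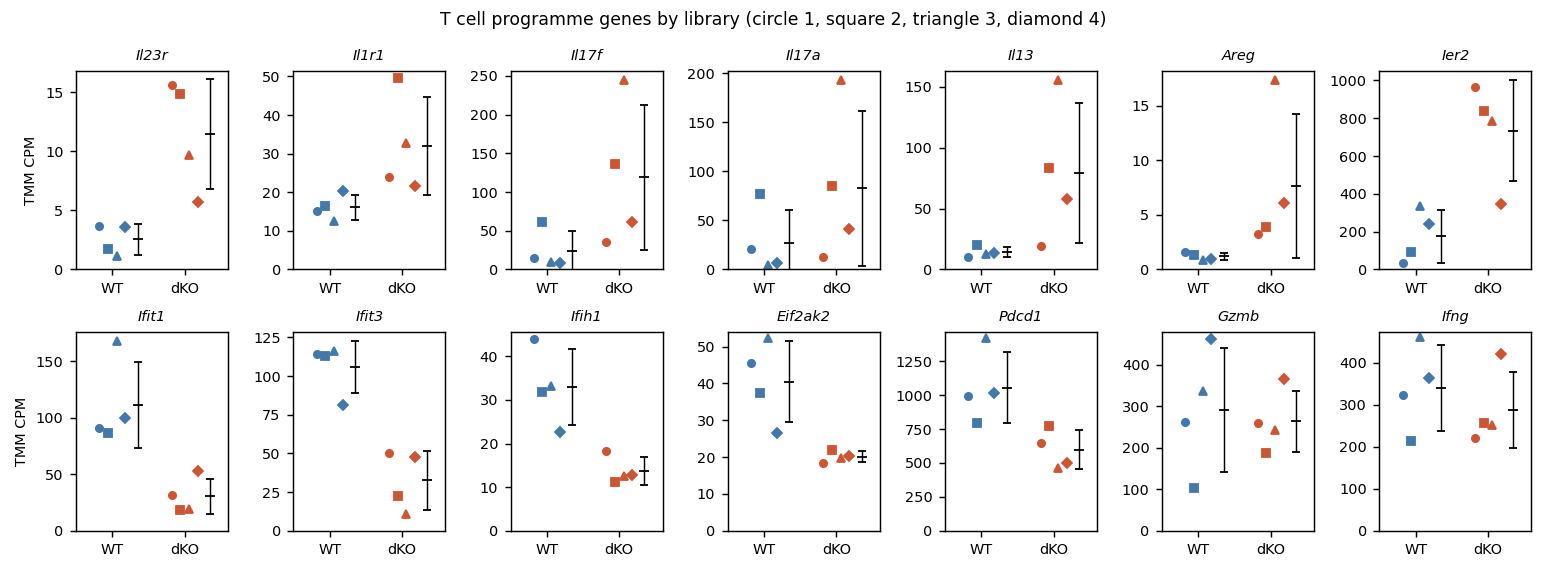
TMM-scaled CPM of type 17, type 2, immediate-early, interferon-stimulated and effector genes in each library (symbols by replicate number, black mean ± SD, n = 4, error bars ending at the axis where they would pass below 0). Il23r and Il1r1 do not overlap between genotypes, Il17f and Il17a do, and the Ifit genes lie lower in all dKO libraries. None of these genes passed the adjusted threshold in edgeR.

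Interferon-stimulated genes lay lower in dKO as a group. Of 65 members tested of 68 listed, 27 were lower and 1 higher at the unadjusted threshold of 0.05, 16 were lower without overlap (2.96% of all genes were), and 0 were called by edgeR. DESeq2 called 5 lower and 1 higher. The median log2 fold change was −0.50 beside 0.002 over all genes, and 54 of the 65 were below 0. The list's summed level was 4983 to 6457 CPM in WT and 3877 to 4965 CPM in dKO.

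Ifit1, which binds viral RNA, read 91.2, 86.2, 168 and 99.6 CPM in WT and 31.3, 18.8, 18.9 and 52.5 CPM in dKO (log2 fold change −1.87 ± 0.39 SE, edgeR adjusted p = 0.10). Ifit3, its partner, read 115, 113, 116 and 81.1 CPM in WT and 50.0, 22.5, 10.7 and 47.4 CPM in dKO (log2 fold change −1.71 ± 0.44 SE, edgeR adjusted p = 0.19). Ifih1, the RNA sensor MDA5, read 22.6 to 43.9 CPM in WT and 11.2 to 18.3 CPM in dKO (log2 fold change −1.25 ± 0.26 SE, edgeR adjusted p = 0.10). Trim25, a ubiquitin ligase of RNA sensing, was the member higher at the unadjusted threshold, at 20.6 to 51.8 CPM in WT and 68.8 to 114 CPM in dKO. Cxcl10, an interferon-induced chemokine, read 21.0 to 35.2 CPM in WT and 13.4 to 20.2 CPM in dKO. Without WT replicate 1 and dKO replicate 3, the libraries highest in melanocyte and neutrophil reads, 13 of 64 members were lower at the unadjusted threshold and the median log2 fold change was −0.37. Without the first alone 15 of 65 were lower, and without the second alone 14.

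The promoters of Ifit1 and Ifit3 are shown because interferon acts on such genes through a known sequence element. The interferon-stimulated response element was searched as GAAANNGAAA on both strands (TTTCNNTTTC on the other) in RefSeq promoters of GRCm38.p6, 250 bases before to 50 after the start. Promoters were matched for 49 of the 65 tested members. It was present in 29 of these (59.2%), against 392 of 10156 tested genes with a promoter (3.86%). Among the 21 matched members that were lower at the unadjusted threshold it was present in 11 (52.4%), and among the other 28 in 18 (64.3%). The promoters of Ifit1 (chr19:34640639-34640938, plus strand) and Ifit3 (chr19:34583279-34583578, plus strand) follow with each match in capitals, and both hold 2 copies on the minus strand.
Ifit1: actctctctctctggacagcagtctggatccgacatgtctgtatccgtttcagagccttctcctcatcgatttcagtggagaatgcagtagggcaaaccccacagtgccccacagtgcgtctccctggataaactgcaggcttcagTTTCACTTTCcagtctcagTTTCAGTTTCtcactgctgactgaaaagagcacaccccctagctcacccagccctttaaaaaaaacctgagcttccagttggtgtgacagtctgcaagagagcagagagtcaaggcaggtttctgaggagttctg
Ifit3: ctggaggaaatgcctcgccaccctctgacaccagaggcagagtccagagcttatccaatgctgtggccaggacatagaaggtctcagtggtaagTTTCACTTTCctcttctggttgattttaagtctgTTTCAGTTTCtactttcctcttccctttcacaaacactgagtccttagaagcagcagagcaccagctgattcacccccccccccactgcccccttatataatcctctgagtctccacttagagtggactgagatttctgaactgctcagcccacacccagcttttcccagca

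Effector and inhibitory receptor genes held no call by edgeR. Gzmb, which encodes granzyme B, read 102 to 461 CPM in WT and 187 to 365 CPM in dKO (log2 fold change −0.05 ± 0.41 SE), and Prf1, perforin, 59.4 to 99.5 and 65.9 to 77.2 CPM (log2 fold change −0.12 ± 0.17 SE). Pdcd1 came nearest to a call among checkpoint genes, at 992, 792, 1418 and 1014 CPM in WT and 648, 775, 464 and 502 CPM in dKO (log2 fold change −0.83 ± 0.15 SE, edgeR adjusted p = 0.054). Its 4 dKO libraries lay below the 4 WT libraries, the nearest pair being 775 and 792 CPM. Tnfrsf9, the costimulatory receptor 4-1BB, had a log2 fold change of −0.84 ± 0.22 SE (edgeR adjusted p = 0.19). Havcr2 (TIM-3), Tox and Tcf7 had log2 fold changes of −0.24, −0.37 and −0.07 with SEs of 0.20, 0.23 and 0.13. Of 23 checkpoint and exhaustion genes tested, 1 was higher and 4 lower at the unadjusted threshold.

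T cell identity genes themselves sat slightly lower in dKO. Of 20 tested, 17 had a log2 fold change below 0, 4 (Trbc2, Cd247, Cd3e and Cd3d) were lower at the unadjusted threshold, and the median was −0.22. Of 17 cytotoxic effectors, 4 were lower and 0 higher, led by the granzyme inhibitor Serpinb6b (87.3 to 149 CPM in WT, 55.3 to 76.4 CPM in dKO, edgeR adjusted p = 0.078). Summed T cell receptor signalling genes reached 12360 to 13590 CPM in WT and 9307 to 11840 CPM in dKO, and Themis, which tunes receptor signals, had a log2 fold change of −0.67. dKO replicate 3 was lowest in both the identity and the signalling sums and highest in macrophage, neutrophil and fibroblast sums. The part of reads from other cells in these differences was not tested.

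Proliferation genes were mixed. Of 49 S phase and E2F target genes tested, 41 had log2 fold changes below 0 (median −0.38), 9 were lower and 4 higher at the unadjusted threshold, and the only call was Mcm6, higher. Of 65 G2 and mitosis genes, 54 were below 0 (median −0.42), with 4 lower and 3 higher at that threshold and 0 called. Both medians rested in part on WT replicate 1 and dKO replicate 3. The S phase median was −0.24 without the first, −0.20 without the second and −0.14 without both, and the G2 and mitosis median was −0.25, −0.15 and −0.05. Mki67 read 58.8 to 147 CPM in WT and 40.3 to 97.7 CPM in dKO (log2 fold change −0.39 ± 0.32 SE), and Top2a 111 to 296 and 83.5 to 140 CPM (log2 fold change −0.59 ± 0.32 SE). Cenpa, the centromeric histone H3 variant, read 99.6 to 164 CPM in WT and 197 to 286 CPM in dKO (log2 fold change 1.00 ± 0.20 SE, edgeR adjusted p = 0.085). Espl1, the protease separase, went the other way (log2 fold change −1.97 ± 0.45 SE, edgeR adjusted p = 0.13). WT replicate 1 had the highest S phase and mitosis sums of all 8 (4351 and 3575 CPM) and also the most melanocyte reads. Among core histone variants the levels of H2afx lay at 7.53 to 31.3 CPM in WT and 24.6 to 89.3 CPM in dKO (edgeR adjusted p = 0.055).

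Immediate-early genes, which cells transcribe quickly after a stimulus, summed to 8181 to 14140 CPM in WT and 15550 to 19730 CPM in dKO. Of 21 tested, 6 were higher at the unadjusted threshold, 0 lower and 0 called by edgeR. The 6 became 3 without WT replicate 1, without WT replicate 2 or without dKO replicate 3, and 4 with an offset for GC content. Ier2 read 32.7, 89.8, 337 and 242 CPM in WT and 966, 838, 785 and 348 CPM in dKO (log2 fold change 2.42 ± 0.47 SE, edgeR adjusted p = 0.078). Jun had a log2 fold change of 1.61 ± 0.36 SE. WT replicate 1 was the lowest library for Ier2 and WT replicates 1 and 2 lay below the other WT mice.

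Genes rich in GC also lay higher in dKO as a group. The 105 expressed genes with at least 60% GC in their transcripts had a median log2 fold change of 0.38, and they lay at −0.57 in WT replicate 1 relative to their mean over the 8 libraries (log2 scale), at −0.09 to 0.07 in the other WT libraries and at 0.06 to 0.27 in dKO. Ier2 has 60.9% GC, Junb 62.6%, Ltb 62.6%, H2afj 60.9% and H2afx 62.3%, against a median of 49.5% over all genes tested. An offset for GC content left the genes with at least 60% GC at a median log2 fold change of 0.165, so it removed only part of their shift. Under it Ier2 had a log2 fold change of 2.26. The immediate-early list has a median GC of 54.0%. Its median log2 fold change was 0.34 without the offset and 0.35 with it. Itgb7, an integrin of gut-homing T cells, was called, with a log2 fold change of 1.35 before and 1.30 with the offset (edgeR adjusted p = 0.052 and 0.048). Dgat1, at 54.0% GC, and Bcl2a1d, at 44.6%, moved by under 0.05. Genes called higher had a median GC of 49.9% and genes called lower 45.6%.

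**Figure D5:**
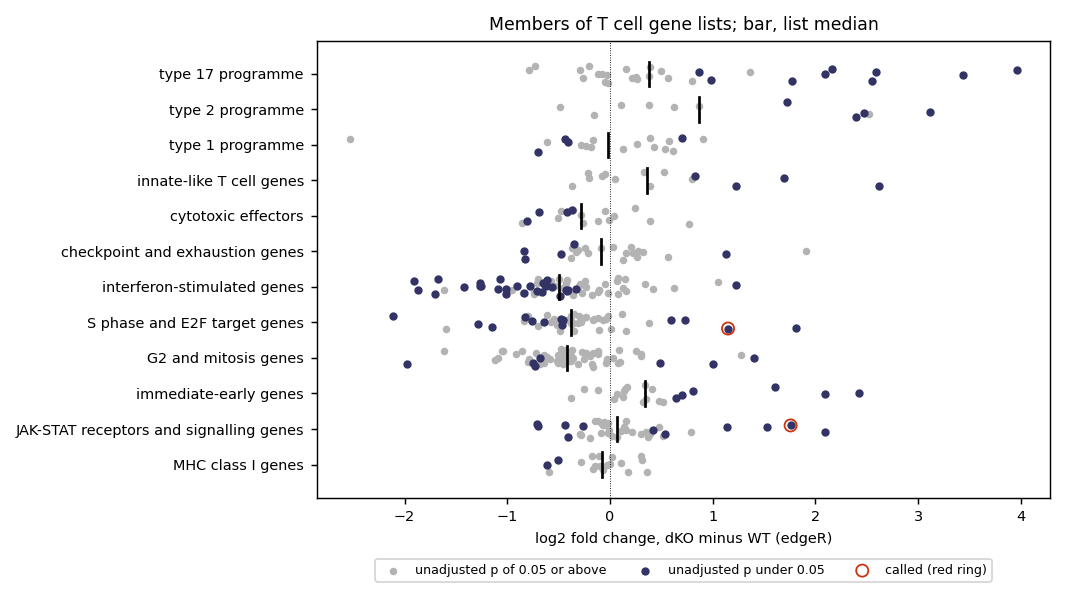
Log2 fold change (dKO minus WT, edgeR) of every tested member of 12 gene lists, dark points passing the unadjusted threshold of 0.05 and red rings the calls (Mcm6 and Ifngr2), with the list median as a bar. The interferon-stimulated list has 54 of 65 members below 0, and the type 17 list has all 9 dark points above 0.

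Of 39 JAK-STAT receptors and signalling genes, Ifngr2 was called, and 6 were higher and 5 lower at the unadjusted threshold. Socs3, a feedback inhibitor, read 61.3 to 147 CPM in WT and 126 to 407 CPM in dKO (log2 fold change 1.53, edgeR adjusted p = 0.078), and Ifnar2, a type I interferon receptor chain, 42.8 to 81.7 and 97.9 to 170 CPM (log2 fold change 1.14, edgeR adjusted p = 0.17). Ifngr2 and Ifnar2 lay higher in dKO while most interferon-stimulated genes lay lower. Ifnar2 was not called by edgeR and was chosen after its values were seen. The median log2 fold change of this receptor and signalling list was 0.07. A link between receptor chains and interferon-stimulated genes was not tested. Of 21 NF-κB genes, 4 were higher and 0 lower, led by the inhibitor Nfkbib (51.9 to 109 CPM in WT, 128 to 149 CPM in dKO, edgeR adjusted p = 0.078). Of 17 chemokine receptors, Cxcr4 was lower (47.0 to 96.3 CPM in WT, 11.0 to 36.9 CPM in dKO, log2 fold change −1.49, edgeR adjusted p = 0.17). Over the 27 T cell programme lists together, 604 distinct genes were tested, and 2 were called higher and 1 lower, a share like the 0.495% called over all genes.

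Of 114 distinct markers of other cell types tested on the 15 lists, Klri2 was called higher and Sfn lower by edgeR, where 0.495% of all genes were called in either direction. The filter on low counts left 2 of 14 neutrophil and 9 of 14 melanocyte markers to be tested, and DESeq2 called 1 melanocyte marker higher and 1 lower. At the unadjusted threshold Cd209a and Itgax of the dendritic cell list were higher (log2 fold changes 1.80 and 0.98), and of the melanocyte list Ptgds was lower (log2 fold change −4.26, 23.3 CPM in WT replicate 1) and Trpm1 higher. With an added term for melanocyte markers 14 genes were called higher and 16 lower, with one for neutrophil markers 12 and 17, and with one for MHC class II genes, chosen after seeing the data, 12 and 15. All 74 called genes kept their direction under each of these. Their genotypes do not overlap in the same libraries, so this outcome was largely set in advance. Dgat1, Baiap3, Gm10282, Gm12166, Bcl2a1d, Tagap1 and Zfp965 were called under each of these terms and in each of the 8 fits that leave out 1 library. Many other calls did not hold there. Of the 39 higher genes 7 were called in all 8 such fits and 11 in none, and of the 35 lower genes 11 in all 8 and 5 in none. F2r, Nt5e, Mcm6, Rpe, Mtmr9, F2rl1 and Noct were called in 1 of the 8, Ifngr2, Ptp4a2, Klri2, Dennd3, Naip5 and Sfn in 2, and Dnajc15 in 0.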

How the data were processed

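RNA-seq libraries of sorted CD8+ T cells from 8 mice were analysed. Per the labels, the authors quantified transcripts with Salmon (1.2.1) on GRCm38.p6. The deposited files hold estimated counts, TPM and effective lengths per transcript. TPM and effective length served only for levels given in the tables and for 1 alternative. Here these counts were added up over the transcripts of each gene (Gencode mouse release 21), which matched 99.15% of transcripts, and rounded to whole numbers. Counts without a gene made up 0.25 to 0.29% of each library and were left out.

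Genes were filtered with filterByExpr (minimum count 10, minimum total 15), scaled by TMM and fitted with edgeR (4.0.16, R 4.3.3) as robust quasi-likelihood models with sex and genotype. Calls required more than 0.75 of change on the log2 scale and a p, adjusted by Benjamini-Hochberg over all genes tested, below 0.05. DESeq2 (1.42.0) was an alternative. The p-values measure the spread between mice. The script was tested on simulated data.

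Members and gene lists were chosen with earlier results of these data known. Named were the targeted and identity genes, 13 T cell genes, the genes the study names, up to 12 called protein-coding genes per direction with the greatest change and an average log2 CPM of at least 3, up to 4 members per list by smallest p, and the 2 most abundant markers of each other cell type. Nt5e, Ptp4a2, Zfp965, Naip5, the copies of called genes, the genes in runs along chromosomes, Il5, Il1rl1, Runx3, Stat4, Trim25, Cxcl10, Themis, Ifnar2, Jun, Junb, Ltb, H2afj, Itgax, Cd209a, Ptgds and Trpm1 were chosen after their values were seen, where these rules did not name them.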

Additional observations from a re-analysis of the deposited data

Results flagged for a closer look

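In each genotype of 4 mice, the highest or lowest library was compared with the rest for the named genes and marker sums. Of 308 groups checked, 34 had 1 library far from the other 3. The limit used is passed by about 1 in 20 groups only where values are independent and normally distributed. These groups share the same libraries and CPM values are skewed, so the 34 cannot be compared with that rate. Some of the 34 rest on very low levels, such as Ngp at 0.052 CPM in WT replicate 1 and Hba-a2 at 0.117 CPM in WT replicate 4. dKO replicate 3 was the library set apart in many of the 34 groups. Its neutrophil markers summed to 110.3 CPM (other dKO 2.21 to 2.96), with Ngp at 45.5 CPM and Retnlg at 29.8 CPM, and its monocyte and macrophage markers to 1709 CPM (other dKO 458 to 565), with Cd14 at 377 CPM, Cd68 at 151 CPM and Arg1 at 24.3 CPM. It was also apart for Klri2 (17.5 CPM), Xcl1 (53.1 CPM) and Dnajc15 (21.1 CPM).

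WT replicate 1 stood apart in melanocyte markers, at 414 CPM (other WT 21.2 to 83.2), with Dct at 124.9 CPM, Gpnmb at 92.6 CPM and Ptgds at 23.3 CPM. The same library was apart for Ikzf4 (17.5 CPM), Klri2 (0.31 CPM) and Ngp (0.052 CPM). WT replicate 2 was high for Il17f (61.8 CPM, other WT 8.82 to 14.7), Arg1 (11.1 CPM) and Runx3 (73.3 CPM) and low for Hspd1 (176.6 CPM). WT replicate 3 was high for Baiap3 (1.36 CPM), Noct (102.8 CPM) and Ifit1 (168 CPM) and low for Dynlt1b (14.2 CPM, other WT 34.5 to 35.4).

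WT replicate 4 was high for Csf3r (7.65 CPM), Mcpt8 (2.33 CPM), Hba-a2 (0.117 CPM) and the neutrophil sum (10.97 CPM). Among the remaining dKO libraries, replicate 1 was high for Krt17 (9.08 CPM) and the gamma-delta T cell sum (496.5 CPM), replicate 2 for Bcl2a1d (41.5 CPM), and replicate 4 for Noct (39.2 CPM). The effective number of T cell receptor beta V segments was low in dKO replicate 4, at 4.43 (other dKO 13.1 to 13.6).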

How the results depend on the processing

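No paired analysis was possible because the labels do not pair the sorted CD8 mice. The replicate numbers used here only name the libraries, and same-numbered WT and dKO mice differ in sex. Every call tested under an alternative kept its direction, and 4 higher and 3 lower genes were called under all 23. The genotypes did not overlap at any called gene in these same libraries. A change of direction was therefore unlikely from the start, and the kept directions are no independent support. DESeq2, run on 54115 genes, called 359 genes higher and 242 lower. These held 28 and 16 list members, 12 near H2afy, 3 near H2afy2 and 247 at or above the tumour level. No filter beyond 1 count, with 30221 genes, gave 439 and 405, with 44 and 21 list members, 14, 5 and 326. The main fit tested 14944 genes. Genes tested near the targets were not counted for each alternative, so the counts near them give no shares and are not compared with the main fit. An effective length offset gave 25 higher, 0 list members higher and 4 near H2afy. Only protein-coding genes gave 19 and 15, with 0 near H2afy and 19 at the tumour level. Terms for neutrophil, melanocyte and MHC class II markers gave 12 and 17, 14 and 16, and 12 and 15, each with 0 list members higher and 1 near H2afy, and 19, 20 and 17 at the tumour level. Only genes at or above the tumour level gave 4 and 2 list members and 73 calls. Without WT replicate 1 and dKO replicate 3 there were 13 and 11, with 1 near H2afy and 19 at the tumour level. Without the least even beta V library of each genotype there were 7 and 13, with 0 list members higher, 1 near H2afy and 12 at the tumour level. Leaving out 1 library at a time gave 11 to 29 higher and 12 to 28 lower, 0 to 2 and 1 to 3 list members, 1 to 2 near H2afy, 0 near H2afy2 and 15 to 31 at the tumour level. DESeq2 called 132 genes for the genotype by sex term. The terms for MHC class II and GC content and the beta V exclusion were chosen after seeing the data. The cause of these shifts was not tested, beyond the fewer samples or genes that an alternative leaves.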

Other observations

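T cell receptor V segments differed in evenness among the mice. The effective number of beta V segments, the inverse of the summed squared shares of the segments, was 10.4, 12.7, 2.04 and 10.7 in WT and 13.1, 13.6, 13.1 and 4.43 in dKO. In WT replicate 3, Trbv13-3 held 69.5% of beta V counts and Trav3-3 58.5% of alpha V counts. In dKO replicate 4, Trbv13-3 held 39.5% and Trav2 39.3%. These 2 libraries, 1 of each genotype, were the least even, and the genotypes overlapped. Trav3-3 was also the leading alpha V segment in WT replicate 4 (25.7%), dKO replicate 1 (8.66%) and dKO replicate 2 (9.88%).

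Immunoglobulin kappa V counts were present in 5 libraries and nearly absent in 3. They numbered 2954, 2167, 1 and 4757 in WT and 12, 30, 6396 and 2913 in dKO, and a single segment held most of them where they were abundant (Igkv12-46 with 88.1% in WT replicate 1, Igkv12-41 with 87.2% in dKO replicate 4, Igkv4-72 with 74.8% in dKO replicate 3).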
